A study of Mus musculus with 15 samples.

Results

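Nqo1, Cbr1, Cbr3, Akr1b8 and Ptgr1, 5 enzymes that reduce quinones and reactive carbonyls, were followed in the large intestine of male C57Bl/6 mice aged 4 weeks that were dosed with cymopol or with a non-polar algal extract. They were taken by name, with earlier results of these data known, and are 5 of 43767 genes with a value in every library. All 5 were among the 11606 genes that passed the filter on low values and were tested. RNA was sequenced in 15 libraries, 3 in each of 5 groups. Cymopol, a brominated prenylated hydroquinone from the green alga Cymopolia barbata, was dosed at 1.4 mmol/kg (high dose, replicates 11, 12 and 14) or at 0.3 mmol/kg (low dose, replicates 33, 34 and 35). The extract was given at 1.0 g/kg (high dose, replicates 21, 23 and 25) or at 0.3 g/kg (low dose, replicates 26, 27 and 29). Vehicle mice (replicates 2, 4 and 5) received the solvent shared by all groups, Chremophor EL with 10% DMSO. All groups had 3 gavages 24 h apart, and tissue was collected 12 h after the third. The labels do not say that the 3 libraries of a group are 3 separate mice, and if they are not, a p-value reflects technical scatter only.

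Quinones and reactive carbonyls enter gut epithelium from food, microbes and oxidised lipids. Reductases that draw on NADPH or NADH turn them into hydroquinones and alcohols, which can be conjugated and exported. The transcription factor NRF2 is held in the cytoplasm and degraded through KEAP1. Electrophiles that modify KEAP1 free NRF2, which then binds antioxidant response elements together with small MAF proteins. Nqo1 is the textbook NRF2 target, and Cbr1, Cbr3, Akr1b8 and Ptgr1 or their human counterparts are also known as targets.

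No difference in any of the 5 genes passed a Benjamini-Hochberg adjusted p of 0.05 in limma, where 0% to 0.0172% of all genes did over the 8 comparisons between groups. At the extract high dose, Nqo1, Cbr1, Cbr3 and Akr1b8 were above all 3 vehicle libraries, as were 19.4% of all genes. At the cymopol high dose this held for Nqo1, Cbr1 and Akr1b8 and for 19.5% of all genes. After median-of-ratios scaling of the libraries it held for Nqo1 and Akr1b8 at the extract high dose, beside 15.1% of all genes, and for Nqo1 at the cymopol high dose, beside 13.7%. Low-dose values were spread from near 0 to the range of the high doses. Ptgr1 was low in most libraries, and its highest value was in a vehicle library, from 11.1 estimated fragments of an assembled locus.

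The promoter windows of Nqo1, Cbr1, Cbr3 and Akr1b8 are given because these 4 genes had similar profiles over the libraries. The windows span 250 bases before to 50 bases after the annotated start, 5′ to 3′ on the strand of the gene, from RefSeq on GRCm38.p6, and all 5 genes had an entry. Capitals mark matches to 4 motifs on either strand, overlaps included. The motif TGACNNNGC is the core of the antioxidant response element. The motif GCGTG is the core of the element bound by the AHR receptor. The GC box was searched as GGGCGG. The box that sits near many start sites was searched as TATAAA.
Nqo1, chr8:107403156-107403455, minus strand: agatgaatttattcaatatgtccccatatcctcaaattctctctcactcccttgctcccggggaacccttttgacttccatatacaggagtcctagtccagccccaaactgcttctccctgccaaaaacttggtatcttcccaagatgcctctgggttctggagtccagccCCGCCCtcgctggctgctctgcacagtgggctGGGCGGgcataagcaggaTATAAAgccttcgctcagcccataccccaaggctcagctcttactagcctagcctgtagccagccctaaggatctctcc
Cbr1, chr16:93607587-93607886, plus strand: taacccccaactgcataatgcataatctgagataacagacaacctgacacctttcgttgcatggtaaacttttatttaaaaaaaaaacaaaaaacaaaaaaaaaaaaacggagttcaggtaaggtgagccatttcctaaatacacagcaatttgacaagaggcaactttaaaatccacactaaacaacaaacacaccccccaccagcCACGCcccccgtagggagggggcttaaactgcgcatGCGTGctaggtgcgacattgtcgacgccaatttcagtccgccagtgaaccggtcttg
Cbr3, chr16:93682969-93683268, plus strand: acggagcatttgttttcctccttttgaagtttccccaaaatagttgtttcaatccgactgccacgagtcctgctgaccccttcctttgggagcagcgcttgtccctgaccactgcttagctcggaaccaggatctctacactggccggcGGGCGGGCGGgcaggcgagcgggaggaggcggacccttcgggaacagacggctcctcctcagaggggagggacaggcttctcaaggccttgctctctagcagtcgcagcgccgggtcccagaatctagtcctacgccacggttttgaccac
Akr1b8, chr6:34353896-34354195, plus strand: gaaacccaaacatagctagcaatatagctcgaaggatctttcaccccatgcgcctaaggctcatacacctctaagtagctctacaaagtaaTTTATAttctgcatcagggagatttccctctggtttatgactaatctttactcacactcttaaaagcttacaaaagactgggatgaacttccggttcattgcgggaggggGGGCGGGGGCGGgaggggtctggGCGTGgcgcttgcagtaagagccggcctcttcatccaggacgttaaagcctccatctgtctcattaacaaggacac
None of the 5 windows held TGACNNNGC, which was in 12.4% of 32851 promoter windows of the same length. This says only that those letters are not in these 300 bases, since response elements often lie farther upstream. Counted from the start, GCGTG matched at -43 and -7 in Cbr1 and at -26 in Akr1b8, and 32.4% of all windows held it. The box TATAAA lay at -29 in Nqo1 and another at -159 in Akr1b8, a motif of 13.6% of windows. GC boxes, in 35.7% of windows, matched 2 times each in Nqo1, Cbr3, Akr1b8 and Ptgr1 and not in Cbr1. GC content was 53.7% in Nqo1, 44% in Cbr1, 60% in Cbr3 and 49% in Akr1b8. These matches are descriptions of sequence and were not tied to the expression values.

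The libraries differed in depth and composition, and this bears on every result that follows. Fragments in protein-coding genes, estimated from the width of the deposited intervals, numbered 289004 to 343640 in cymopol high-dose, 31971 to 183915 in cymopol low-dose, 175518 to 559029 in extract high-dose, 28592 to 107206 in extract low-dose and 25265 to 227401 in vehicle libraries. The share of all estimated fragments that lay in genes was 65.4% to 65.6%, 44.7% to 71.9%, 57.1% to 65.1%, 33.4% to 66.2% and 8.56% to 46.6% in the same order. Vehicle replicates 2 and 5 and extract low-dose replicate 26 had 46.8%, 25.1% and 23.6% of fragments in intergenic loci, more than any other library. Between 5.8% and 13.2% of tested genes were listed at 0 in the high-dose libraries, against 27.3% to 51.4% in vehicle libraries. The low-dose libraries had 10.0% to 50.7% (cymopol) and 13.6% to 56.5% (extract), highest in cymopol replicate 33 and extract replicate 26. Among 15 genes that all cells use, up to 3 were listed at 0 in a vehicle library and up to 2 in a low-dose library. A value of 0 is therefore given as listed at 0, and group means with SD are given only for Cbr1, which was above 0 in all 15 libraries. Epithelium is a tissue layer known to express these enzymes. Its 8 marker genes summed to 858 to 1346 FPKM in cymopol high-dose and 220.4 to 1032 in cymopol low-dose libraries. They summed to 507.6 to 1017 in extract high-dose, 29.9 to 544 in extract low-dose and 60.0 to 599 in vehicle libraries. At most 1 of the 8 was at 0 in any library. Goblet markers (6 of 7 with values) summed to 515 to 1471 FPKM at the cymopol high dose and 311 to 1373 at the extract high dose, against 26.1 to 268 in vehicle libraries. Crypt and cycling markers (5 genes) summed to 4.20 to 9.78 and 2.73 to 5.81 FPKM at these doses, against 1.06 to 2.64 in vehicle libraries, where up to 4 of the 5 were at 0. Surface colonocyte markers (5 of 6 with values) summed to 656 to 1144 FPKM at the cymopol high dose. At the extract high dose they summed to 765 to 1227, and in vehicle libraries to 104 to 2170. The cymopol and extract low doses had 252.9 to 1663 and 43.8 to 1093 FPKM. Some markers of the labelled tissue were thus present in every library, but 3 of these 5 were at 0 in extract low-dose replicate 26. Up to 2 of the 5 were at 0 in a vehicle library. Markers of small intestine (4 genes) summed to 0.965 to 65.6 FPKM in 14 libraries and to 901 FPKM in cymopol high-dose replicate 14. Vehicle replicate 4 stood apart in markers of immune cells and vessels. Its B and plasma cell markers (5 genes) summed to 211.8 FPKM, against at most 18.6 in any other library, and its T cell markers (4 genes) to 36.5, against at most 4.33. Its myeloid markers (4 genes) summed to 96.0 FPKM, against at most 41.7 elsewhere, and its endothelium markers (3 genes) to 46.8, against at most 26.5. It was also the highest in adipocyte markers (6 genes), at 365.1 FPKM against at most 279.6 elsewhere. The same held for fibroblast markers (5 genes), at 223.7 FPKM against at most 218.1 elsewhere and at most 75.0 in the other vehicle libraries. In tissue RNA, fewer cells of a type and less RNA per cell cannot be told apart, and the part of composition and depth in the differences was not tested.

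**Figure D1:**
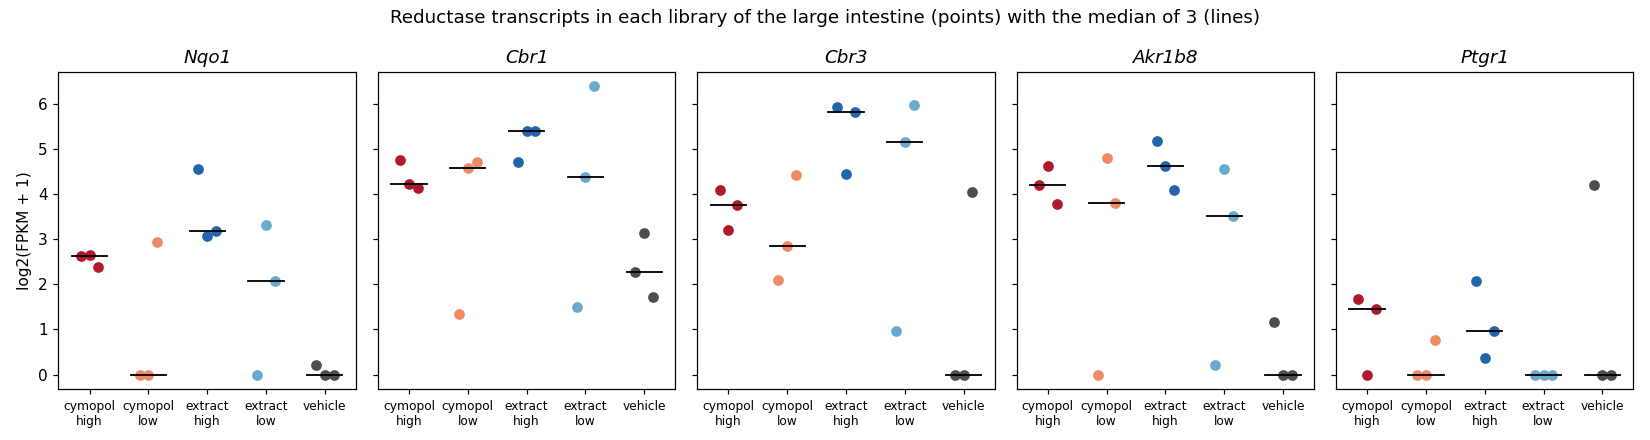
Expression of Nqo1, Cbr1, Cbr3, Akr1b8 and Ptgr1 as log2(FPKM + 1) (vertical axis) in each library (points) of the 5 groups (horizontal axis), with the median of the 3 libraries as a line. The high-dose libraries of Nqo1, Cbr1 and Akr1b8 lie above all 3 vehicle libraries, and the low-dose libraries are spread widely.

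Nqo1 (NAD(P)H quinone dehydrogenase, ENSMUSG00000003849, chr8:107388225-107403206 on GRCm38, minus strand) reduces quinones by 2 electrons at once and so avoids the reactive semiquinone. It had 5.15, 5.31 and 4.19 FPKM in cymopol high-dose replicates 11, 12 and 14. It had 22.4, 7.45 and 8.03 FPKM in extract high-dose replicates 21, 23 and 25. In vehicle replicate 2 it was at 0.167 FPKM, a value from 1 estimated fragment, and in vehicle replicates 4 and 5 it was listed at 0. All 6 high-dose libraries therefore exceeded all 3 vehicle libraries, with 17.98 to 55.3 estimated fragments each. The low doses were mixed, with 6.64 FPKM in cymopol low-dose replicate 35 and a listing at 0 in replicates 33 and 34. Extract low-dose replicates 27 and 29 had 8.96 and 3.23 FPKM, and replicate 26 was listed at 0. Ordered by mean log2(FPKM + 1), extract high dose (3.60) came before cymopol high dose (2.55), extract low dose (1.799), cymopol low dose (0.98) and vehicle (0.07). The 2 high-dose groups did not overlap, and each later pair of neighbours did. The difference from the vehicle was 3.53 ± 1.03 (SE) on the log2(FPKM + 1) scale at the extract high dose (limma, adjusted p = 0.261). At the cymopol high dose it was 2.48 ± 1.03 (limma, adjusted p = 0.322).

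Cbr1 (ENSMUSG00000051483, chr16:93607837-93610505, plus strand) is the main cytosolic carbonyl reductase and acts on quinones, prostaglandins and anthracycline drugs. It had 25.8, 17.5 and 16.5 FPKM in cymopol high-dose replicates 11, 12 and 14, a mean of 19.9 ± 5.11 (SD, n = 3). In extract high-dose replicates 21, 23 and 25 it had 25.0, 40.9 and 41.1 FPKM, a mean of 35.7 ± 9.24 (SD, n = 3). Vehicle replicates 2, 4 and 5 had 3.82, 7.77 and 2.31 FPKM, a mean of 4.63 ± 2.82 (SD, n = 3), the last of them from 1 estimated fragment. The lowest high-dose library was thus above the highest vehicle library. At the low doses it had 1.55, 22.7 and 25.1 FPKM in cymopol replicates 33, 34 and 35 (mean 16.4 ± 13.0, SD, n = 3) and 1.84, 19.8 and 82.4 FPKM in extract replicates 26, 27 and 29 (mean 34.7 ± 42.3, SD, n = 3). Each low-dose group thus held 1 library below the vehicle range and 2 above it. The order of mean log2(FPKM + 1) was extract high dose (5.16), cymopol high dose (4.36), extract low dose (4.09), cymopol low dose (3.54) and vehicle (2.38), and every pair of neighbours overlapped. The log2 difference from the vehicle was 2.79 ± 1.26 at the extract high dose (limma, adjusted p = 0.402) and 1.99 ± 1.26 at the cymopol high dose (limma, adjusted p = 0.486).

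Cbr3 (ENSMUSG00000022947, chr16:93683215-93690990, plus strand) lies 72709 bases from Cbr1 on the same strand and encodes a close relative with a narrower range of substrates. It had 15.9, 8.21 and 12.6 FPKM in cymopol high-dose replicates 11, 12 and 14. It had 59.9, 20.7 and 55.4 FPKM in extract high-dose replicates 21, 23 and 25. Vehicle replicates 2 and 4 were listed at 0, and vehicle replicate 5 had 15.4 FPKM from 5 estimated fragments with a deposited interval of 1.63 to 29.3. All 3 extract high-dose libraries were above the vehicle libraries, whereas vehicle replicate 5 lay within the range of the cymopol high dose. Cymopol low-dose replicates 33, 34 and 35 had 3.26, 6.21 and 20.3 FPKM. Extract low-dose replicates 26, 27 and 29 had 0.965, 34.7 and 61.2 FPKM, so that the extract low dose held both the lowest treated value and the highest value of the 15. In order of mean log2(FPKM + 1), extract high dose (5.40) and extract low dose (4.03) came first, then cymopol high dose (3.68), cymopol low dose (3.12) and vehicle (1.35), and each pair of neighbours overlapped. The log2 difference from the vehicle was 4.05 ± 1.31 at the extract high dose (limma, adjusted p = 0.303). It was 2.68 ± 1.31 at the extract low dose (limma, adjusted p = 1) and 2.34 ± 1.31 at the cymopol high dose (limma, adjusted p = 0.433). Without the 3 libraries rich in intergenic fragments, Cbr3 passed the threshold at the extract high dose (log2 difference 5.40, adjusted p = 0.0183) and at the extract low dose (5.56, adjusted p = 0.0185), where 1.78% and 2.11% of all genes were called. The only vehicle library left in that fit was replicate 4, the library rich in immune cell markers, in which Cbr3 was listed at 0.

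Akr1b8 (ENSMUSG00000029762, chr6:34354119-34368463, plus strand) is an aldo-keto reductase that reduces aldehydes, retinal among them, and is commonly treated as the mouse counterpart of human AKR1B10. It had 17.2, 23.7 and 12.8 FPKM in cymopol high-dose replicates 11, 12 and 14. It had 35.3, 23.6 and 16.1 FPKM in extract high-dose replicates 21, 23 and 25. Vehicle replicate 2 had 1.26 FPKM from about 2.6 estimated fragments, and vehicle replicates 4 and 5 were listed at 0. Each high-dose library had at least 41.9 estimated fragments and was above all vehicle libraries. Cymopol low-dose replicates 34 and 35 had 26.7 and 12.8 FPKM, and replicate 33 was listed at 0. Extract low-dose replicates 27 and 29 had 22.6 and 10.4 FPKM, and replicate 26 had 0.167 FPKM with a deposited interval of 0 to 1.40. In each low-dose group 2 libraries were thus in or near the high-dose range and the third was at the vehicle level. Mean log2(FPKM + 1) was 4.63 at the extract high dose, 4.20 at the cymopol high dose, 2.86 at the cymopol low dose, 2.76 at the extract low dose and 0.39 in vehicle, and neighbours in this order overlapped. The log2 difference from the vehicle was 4.24 ± 1.24 at the extract high dose (limma, adjusted p = 0.261) and 3.81 ± 1.24 at the cymopol high dose (limma, adjusted p = 0.253).

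Ptgr1 (ENSMUSG00000028378, chr4:58965439-58987119, minus strand) reduces the double bond of unsaturated aldehydes and inactivates leukotriene B4 and oxidised prostaglandins. It had 2.20 and 1.73 FPKM in cymopol high-dose replicates 11 and 14 and was listed at 0 in replicate 12. It had 3.19, 0.295 and 0.944 FPKM in extract high-dose replicates 21, 23 and 25. Its highest value, 17.2 FPKM from 11.1 estimated fragments, was in vehicle replicate 2, the library with 8.56% of its fragments in genes, and vehicle replicates 4 and 5 were listed at 0. Ptgr1 was thus low at both high doses, and 1 vehicle library stood above all treated ones. At the low doses only cymopol replicate 35 was above 0, with 0.710 FPKM. Mean log2(FPKM + 1) was 1.40 in vehicle, 1.13 at the extract high dose, 1.04 at the cymopol high dose, 0.26 at the cymopol low dose and 0 at the extract low dose, and neighbours in this order overlapped. The log2 difference from the vehicle was -0.35 ± 0.82 at the cymopol high dose (limma, adjusted p = 0.854) and -0.26 ± 0.82 at the extract high dose (limma, adjusted p = 0.914). Both differences turned positive without vehicle replicate 2, at 1.04 and 1.13. In vehicle replicate 2, separate assembled pieces of 363 and 197 bases, none of it in exons, also lay inside Ptgr1. The piece of 363 bases had 48.6 FPKM from 25.8 estimated fragments. The Ptgr1 value there also came from an assembled locus. Cbr1 in that library had more estimated fragments, 18.95, for a lower value of 3.82 FPKM. Whether the Ptgr1 value of vehicle replicate 2 reflects the whole transcript was not tested.

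Vehicle replicate 4 had an estimated 227401 fragments in protein-coding genes, and of the 5 genes only Cbr1 was above 0 there, with 14 fragments. Extract high-dose replicate 21 had 175518 such fragments, and all 5 genes were above 0, with 14.9 fragments for Ptgr1 and 111.9 for Akr1b8. These 2 libraries also differed in other ways. Vehicle replicate 4 had 27.3% of tested genes listed at 0 and 34.1% of its fragments in genes. In extract high-dose replicate 21 these shares were 13.2% and 65.15%. Vehicle replicate 4 was also the library rich in immune cell markers, and the source of its listings at 0 was not tested. Among all 15 libraries, all 5 genes were above 0 in the 3 extract high-dose libraries, in cymopol high-dose replicates 11 and 14 and in cymopol low-dose replicate 35.

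**Figure D2:**
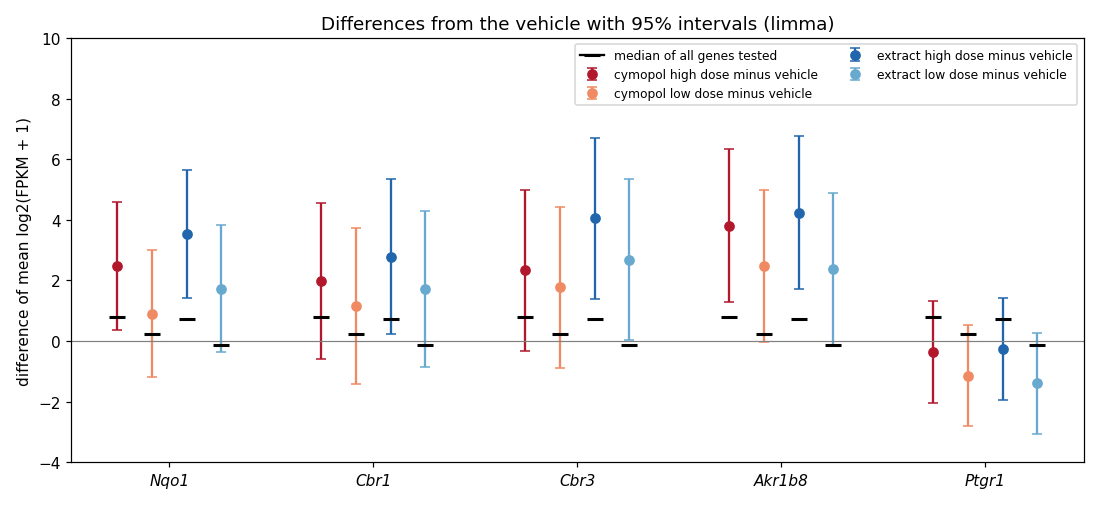
Difference of mean log2(FPKM + 1) between each treated group and the vehicle (points, vertical axis) with 95% intervals from limma, for the 5 genes (horizontal axis), beside the median difference of all 11606 genes tested (short black lines). For Nqo1 and Akr1b8 the intervals exclude 0 at both high doses, and every Ptgr1 interval includes 0.

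Set against the vehicle, the 5 genes were read beside all genes tested. At the extract high dose, 0 of 5 were called by limma at an adjusted p of 0.05, where 0.00862% of genes were called, and 4 of 5 had an unadjusted p under 0.05, against 11.6% of genes. The 4 genes whose libraries did not overlap with the vehicle, all higher, compare with 19.4% of genes. At the cymopol high dose, 0 of 5 were called against 0.0172% of genes, 2 of 5 (Nqo1 and Akr1b8) had an unadjusted p under 0.05 against 13.2%, and 3 of 5 were higher without overlap against 19.5%. At the cymopol low dose 0 of 5 were called and 0 of 5 had an unadjusted p under 0.05, where the shares of all genes were 0% and 5.67%. At the extract low dose 0 of 5 were called and 1 of 5, Cbr3, had an unadjusted p under 0.05, where the shares were 0% and 3.89%. No member was higher than the vehicle without overlap at either low dose, where 3.86% (cymopol) and 1.23% (extract) of all genes were. These 4 comparisons share the vehicle libraries.

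The whole transcriptome was shifted in the same comparisons, so the differences were also placed among all genes. Because the 5 genes were chosen with earlier results of these data known, their places are descriptions only. The median log2 difference of all genes from the vehicle was 0.81 at the cymopol high dose, 0.23 at the cymopol low dose, 0.71 at the extract high dose and -0.14 at the extract low dose. At the extract high dose Akr1b8, Cbr3, Nqo1, Cbr1 and Ptgr1 lay at percentiles 99.7, 99.6, 99.0, 96.8 and 16.0 of the differences of all genes. At the cymopol high dose Akr1b8, Nqo1, Cbr3, Cbr1 and Ptgr1 lay at percentiles 99.3, 93.6, 92.0, 87.1 and 12.2. On this deposited scale Akr1b8 was the highest of the 5 in both. After median-of-ratios scaling over the 1928 genes above 0 in all libraries, the medians of all genes lay between -0.01 and 0.31 over the 8 comparisons, and each member kept the sign of its difference from the vehicle. Under that scaling 2 genes, Nqo1 and Akr1b8, remained above the vehicle without overlap at the extract high dose and 1, Nqo1, at the cymopol high dose, and Cbr3 was free of overlap at the extract low dose. These counts stand beside 15.1%, 13.7% and 3.62% of all genes under the same scaling, and at the cymopol low dose 0 of 5 were free of overlap beside 3.93%. The scaled differences from the vehicle at the extract high dose were 3.58 for Cbr3, 2.94 for Akr1b8, 2.68 for Nqo1, 1.71 for Cbr1 and -1.40 for Ptgr1. For the cymopol high dose they were 2.36 for Akr1b8, 1.76 for Cbr3, 1.55 for Nqo1, 0.76 for Cbr1 and -1.50 for Ptgr1. The size factor of vehicle replicate 2 was 0.145, which put its Cbr1 at 26.3 scaled FPKM, its Akr1b8 at 8.64 and its Ptgr1 at 119. For extract low-dose replicate 26 the factor was 0.0637. It put the Cbr3 of that library, 0.965 FPKM from 6 estimated fragments as deposited, at 15.2 scaled FPKM. The highest scaled vehicle value of Cbr3 was 11.4, so the lack of overlap at the extract low dose rests on this factor.

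**Figure D3:**
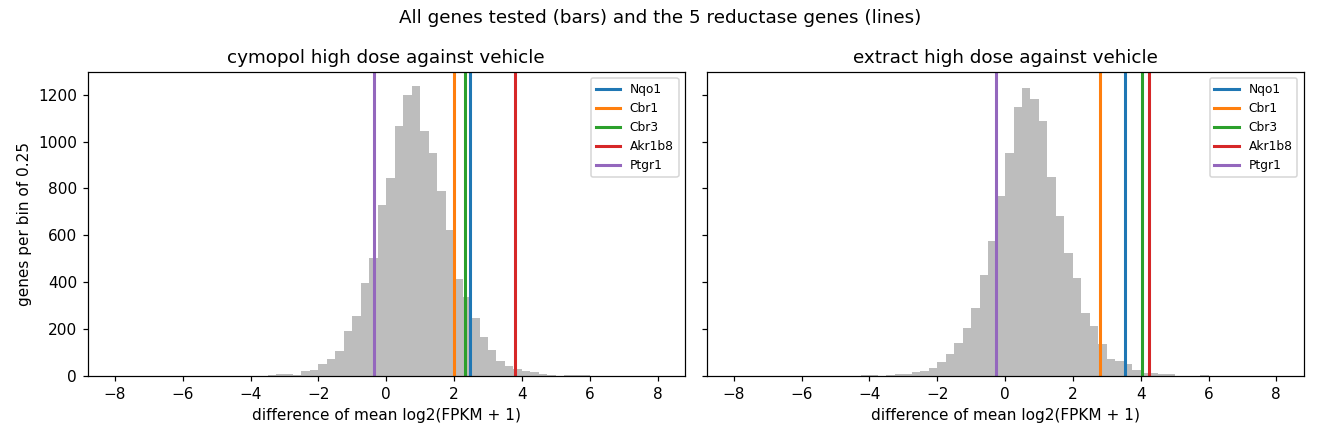
Histograms of the log2 difference from the vehicle (horizontal axis, difference of mean log2(FPKM + 1)) for all 11606 genes tested (vertical axis, genes per bin of 0.25), at the cymopol high dose (left) and the extract high dose (right), with the 5 reductase genes as coloured lines. Akr1b8 lies farthest right in both panels, at 3.81 and 4.24, and Ptgr1 lies left of the bulk.

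Doses of the same agent were compared next. For the extract, the high dose exceeded the low dose by 1.802 ± 1.03 for Nqo1, 1.87 ± 1.24 for Akr1b8, 1.37 ± 1.31 for Cbr3, 1.07 ± 1.26 for Cbr1 and 1.13 ± 0.82 for Ptgr1 on the log2 scale. None passed (limma, adjusted p between 0.638 and 0.705), while 0.00862% of all genes did and the median of all genes was 0.89. Ptgr1 was the only one of the 5 without overlap between the extract doses, a pattern shared by 20.9% of genes in that direction. For cymopol, the high dose exceeded the low dose by 1.57 ± 1.03 for Nqo1, 1.34 ± 1.24 for Akr1b8, 0.82 ± 1.26 for Cbr1, 0.78 ± 0.82 for Ptgr1 and 0.57 ± 1.31 for Cbr3. None passed (limma, adjusted p between 0.874 and 0.943), against 0.00862% of all genes and a median of 0.59. The 95% interval for Akr1b8 ran from -1.17 to 3.85, so neither a rise nor a fall with dose was shown.

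Agents were set side by side at the high and at the low dose, although 1 was dosed by amount of compound and the other by mass of extract. At the high doses, cymopol values were below extract values for all 5 genes, by -1.71 ± 1.31 for Cbr3, -1.05 ± 1.03 for Nqo1, -0.80 ± 1.26 for Cbr1, -0.43 ± 1.24 for Akr1b8 and -0.09 ± 0.82 for Ptgr1 on the log2 scale. None passed (limma, adjusted p = 1 each), where 0.0172% of all genes did. Cbr3 and Nqo1 were lower at the cymopol high dose without overlap, as were 2.4% of genes, and the median of all genes was 0.11. At the low doses the differences lay between -0.91 for Cbr3 and 0.26 for Ptgr1, 0 of 5 were called against 0% of genes, and all 5 overlapped. The 95% interval for Cbr3 at the high doses was -4.37 to 0.94. The difference between agents did not depend on dose beyond its error for any of the 5 (limma interaction, adjusted p = 1 each; 0% of genes called). A single test of any difference among the 5 groups gave F = 3.59 for Akr1b8 (limma, adjusted p = 0.598), F = 3.49 for Nqo1 (adjusted p = 0.606) and F = 2.54 for Cbr3 (adjusted p = 0.692). In that test 2 of 5 had an unadjusted p under 0.05, against 7.32% of all genes, and 0 of 5 were called, against 0.0258%.

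Over the 15 libraries Nqo1, Cbr1, Cbr3 and Akr1b8 varied together, and Ptgr1 did not follow them. Pearson's r of log2(FPKM + 1) was 0.85 for Cbr1 and Akr1b8, 0.81 for Nqo1 and Akr1b8, 0.78 for Nqo1 and Cbr3, 0.73 for Nqo1 and Cbr1, 0.72 for Cbr1 and Cbr3 and 0.70 for Cbr3 and Akr1b8 (n = 15). Only 0.551% of the tested genes had a higher r with Cbr1 than Akr1b8 had, but 6.05% had a higher r with Cbr1 than Cbr3 had. For Nqo1 the shares above were 1.19% (Akr1b8), 2.07% (Cbr3) and 4.76% (Cbr1), and for Cbr3 with Akr1b8 the share was 2.65%. For Ptgr1 the r with the other 4 lay between -0.16 and 0.15. After the group means were removed, the r was 0.78 for Cbr1 and Akr1b8, 0.63 for Nqo1 and Akr1b8 and 0.62 for Nqo1 and Cbr3. It was 0.54 for Cbr1 and Cbr3, 0.52 for Nqo1 and Cbr1 and 0.48 for Cbr3 and Akr1b8. The values of a library share its depth and RNA composition, so these are descriptions. The r with the share of fragments in genes was 0.81 for Cbr3, 0.78 for Nqo1, 0.73 for Akr1b8, 0.64 for Cbr1 and -0.32 for Ptgr1. Its median over all genes was not computed, so these values cannot be placed among all genes. The r with log2 fragments was 0.70 for Nqo1, 0.67 for Cbr1, 0.65 for Akr1b8, 0.34 for Cbr3 and 0.10 for Ptgr1, and its median over all genes was 0.50.

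**Figure D4:**
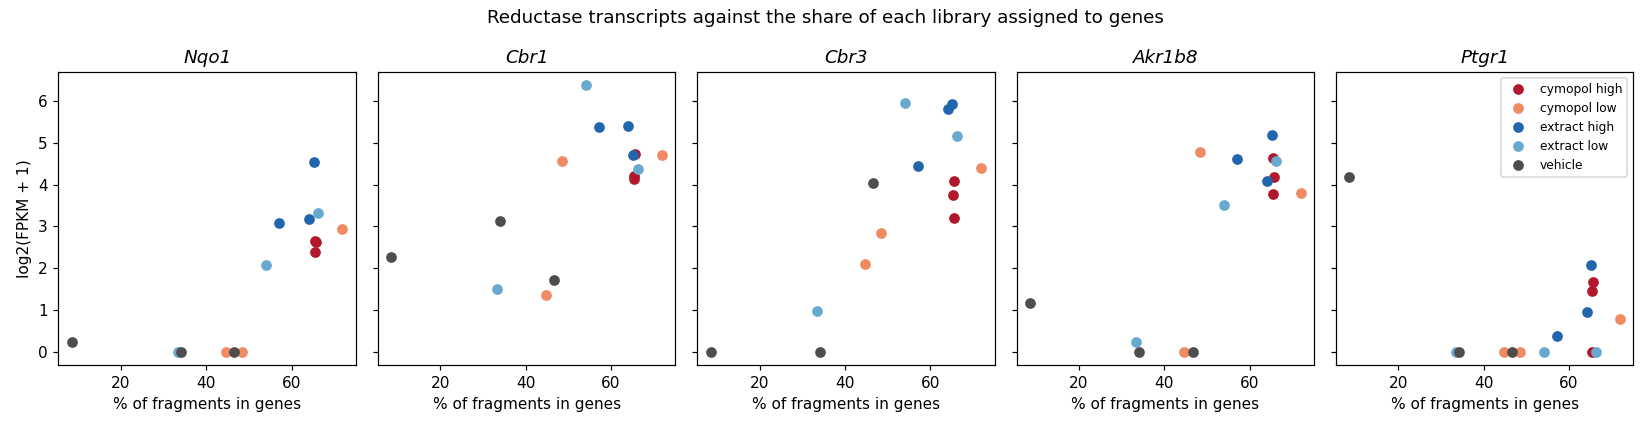
log2(FPKM + 1) of the 5 genes (vertical axis) against the percent of each library's estimated fragments that lay in genes (horizontal axis), 1 point per library, coloured by group. Libraries with over 50% in genes include all 6 high-dose libraries, and the 3 vehicle libraries all lie under 50%.

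Relatives with similar transcripts could share reads in the authors' counting. The longest protein-coding transcripts of Cbr1 and Cbr3 were 82.9% identical over 809 aligned bases, with 50 bases as the longest identical run. Akr1b8 was 86.1% identical to Akr1b10 over 1278 bases, with a run of 80, and 85.9% identical to Akr1b7 over 1166 bases, with a run of 52. Values of Cbr1, Cbr3 and Akr1b8 are uncertain to the extent that such reads were split. Nqo1 and Nqo2 shared no run above 14 bases, and Ptgr1 and Ptgr2 none above 15. Among the relatives, Akr1b10 was highest in vehicle replicate 4, at 10.2 FPKM, where Akr1b8 was listed at 0. Akr1b7, an aldose-reductase-like enzyme, had 4.16, 1.97 and 13.4 FPKM in cymopol high-dose replicates 11, 12 and 14, and 0, 5.98 and 1.23 FPKM in extract high-dose replicates 21, 23 and 25, and it was listed at 0 in all 3 vehicle libraries. Akr1b3, the aldose reductase, had 5.17, 5.84 and 7.66 FPKM in cymopol high-dose replicates 11, 12 and 14 and 5.96, 5.59 and 1.68 FPKM in extract high-dose replicates 21, 23 and 25, against 1.73, 0 and 0 FPKM in vehicle replicates 2, 4 and 5. Nqo2, a quinone reductase that uses another cofactor, was above 0 in 1 library, extract high-dose replicate 23, at 3.12 FPKM. Ptgr2 had 7.68, 7.26 and 2.65 FPKM in cymopol high-dose libraries and 3.32, 6.05 and 18.3 FPKM in extract high-dose libraries, against 1.14, 56.7 and 25.5 FPKM in vehicle replicates 2, 4 and 5.

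Among 37 other quinone and carbonyl reductases, 32 were tested and 0 were called in any of the 8 comparisons. At the cymopol high dose 9 of the 32 were higher than the vehicle without overlap, against 19.5% of all genes, and 8 had an unadjusted p under 0.05, all higher, against 13.2% of all genes in either direction. Their median log2 difference was 1.17, beside 0.81 over all genes. The smallest p belonged to Akr1b7 (log2 difference 2.59), Dhrs11, a short-chain dehydrogenase (3.68), and Cbr2, a lung-type carbonyl reductase (2.12), with limma adjusted p of 0.254, 0.294 and 0.312. At the extract high dose 4 of the 32 were higher without overlap, against 19.4% of genes, and the median was 0.96 beside 0.71. Mecr, a mitochondrial enoyl reductase, had 7.06, 22.2 and 10.2 FPKM in extract high-dose replicates 21, 23 and 25 and was listed at 0 in all vehicle libraries (log2 difference 3.68, limma adjusted p = 0.261). Dhrs11 (3.53, adjusted p = 0.364) and the biliverdin reductase Blvrb (2.59, adjusted p = 0.393) followed. At the low doses the medians were 0.09 for cymopol and -0.21 for the extract, beside 0.23 and -0.14 over all genes. The genes with the smallest p were Dhrs7 (2.30), Ptgr2 (-2.29) and Dhrs1 (-1.94) for cymopol, with adjusted p between 0.818 and 0.887, and Ptgr2 (-2.92), Mecr (1.56) and Cbr2 (1.27) for the extract, each with an adjusted p of 1. Between doses, 8 of the 32 were higher at the extract high dose than at the extract low dose without overlap, against 20.9% of genes, led by Akr1c14 (2.89), Sord (2.83) and Dhrs11 (3.20), each with an adjusted p of 0.638. For cymopol 4 of the 32 were, against 9.74% of genes, led by Blvra (1.82), Cryzl2 (2.02) and Akr1b7 (1.84), with adjusted p between 0.814 and 0.837. Between agents at the high doses, Blvra (1.50), Cbr2 (1.43) and Mecr (-1.50) had the smallest p, and at the low doses Akr1c14 (2.45), Cryz (1.31) and Dhrs7 (1.51), each with an adjusted p of 1.

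Other NRF2 target genes were compared in the same way, with 36 of 43 tested and 0 called in any comparison. Both lists were chosen with earlier results of these data known. Their counts are on the deposited scale, without median-of-ratios scaling, and are descriptions only. At the extract high dose 17 of the 36 were higher than the vehicle without overlap, against 19.4% of all genes, and the median log2 difference was 2.04 beside 0.71 over all genes. Gstp2 (3.85) and Gsta4 (3.50), glutathione transferases, and Hmox1, the heme oxygenase (3.06), had the smallest p, with limma adjusted p of 0.261, 0.261 and 0.285. Hmox1 had 23.0, 5.10 and 2.96 FPKM in extract high-dose replicates 21, 23 and 25 and was listed at 0 in all vehicle libraries. At the cymopol high dose 13 of the 36 were higher without overlap, against 19.5%, and the median was 1.59 beside 0.81. Gpx2, a glutathione peroxidase of gut epithelium, had 14.3, 25.9 and 11.3 FPKM in cymopol high-dose replicates 11, 12 and 14, against 0.447, 0 and 0 FPKM in vehicle replicates 2, 4 and 5 (log2 difference 3.92, limma adjusted p = 0.186). Gstp2 (3.36, adjusted p = 0.258) and Gsta4 (2.76, adjusted p = 0.294) followed. At the low doses the medians were 0.47 for cymopol and 0.55 for the extract, and 2 and 0 of the 36 were higher without overlap, against 3.86% and 1.23% of genes. The smallest p belonged to G6pdx (2.03), Gsta4 (1.86) and Prdx1 (2.10) for cymopol, with adjusted p between 0.873 and 0.887, and to Gstp2 (2.12), Gstm2 (-2.01) and Gstm3 (2.05) for the extract, each with an adjusted p of 1. Between the extract doses Hmox1 (2.38), Gsta4 (2.396) and Abcc4 (1.83) led, with an adjusted p of 0.638 each, and between the cymopol doses Gpx2 (2.71), Cat (2.77) and Mgst2 (2.99), with adjusted p between 0.814 and 0.840. Between agents, Abcc4 (-1.38), Gsta1 (-1.46) and Gclc (-2.30) led at the high doses and Gstm2 (1.81), Gclm (-1.72) and Mgst2 (-1.72) at the low doses, each with an adjusted p of 1.

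The genes with the profile most like each member were found by Pearson's r of log2(FPKM + 1) over the 15 libraries, which share depth and composition. For Nqo1 these were Tufm (0.95) and Syap1 (0.93), and for Cbr1 the closest was Gsk3b (0.97). Cbr3 was closest to Ndrg1 (0.90) and to Keap1 (0.88), and Akr1b8 to Fkbp2 (0.95) and Gprasp1 (0.95). Ptgr1 was closest to Avil (0.95) and Tmc3 (0.91). None of the 5 had another member as its closest gene.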

How the data were processed

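RNA (90 ng per library) was depleted of ribosomal RNA and sequenced with a low-input kit, per the labels' protocols. The aligner was STAR 2.4.0j and the build GRCm38.p4, per the submitters' processing notes. The authors deposited FPKM values (fragments scaled by length and depth) with lower and upper bounds, in the columns of a Cufflinks gene tracking table per the file headers. Settings of the quantifier are not given in the sources used. The tables hold no counts, and fragments per gene were estimated from interval width, which covers counting error only.

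Genes often appear as a locus assembled in 1 library. Such a locus stood in for a gene without a value there when both spans overlapped by at least 0.5 of their union and matched each other best, against loci of the files or GENCODE M21 (4361 tested genes have no identifier in the files). Tested genes (11606) had values in every library and reached 1 FPKM in 3 or more. limma 3.58.1 in R 4.3.3 was fitted to log2(FPKM + 1), pseudocount 1, with 1 mean per group and an intensity trend, for 8 comparisons, an interaction and an F test, two-sided, adjusted by Benjamini-Hochberg over all genes tested. A fold change on this scale understates the change of low genes. With 3 libraries a group, two-sided exact permutation tests between 2 groups cannot pass 0.05, and permutation tests were not used. Of each list, the 3 tested genes with the smallest p in each comparison are named where none is called, and for each member the 2 genes with the highest r, of which 1 is not reported here. Other genes with values were chosen after their values were seen. Members and lists were chosen with earlier results of these data known. Alternatives were another pseudocount, no filter, median-of-ratios scaling, 2-group fits, annotated identifiers only, partial values, array weights and leaving out libraries. Transcripts were aligned with Biopython 1.88.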

Additional observations from a re-analysis of the deposited data

Results flagged for a closer look

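A short locus inside an intron of Nqo1 (chr8:107392281-107392342, 57 to 62 bases, 45 bases from the nearest exon, chr8:107392122-107392235) was assembled in all 6 low-dose libraries and in none of the 6 high-dose and 3 vehicle libraries. It is outside the comparisons above because it is no part of the FPKM of Nqo1. It had 78172, 222914 and 116384 FPKM in cymopol low-dose replicates 33, 34 and 35 and 8094, 93331 and 218862 FPKM in extract low-dose replicates 26, 27 and 29. These values rest on 57.3 to 151 estimated fragments each. Among the loci under 100 bases with over 1000 FPKM, it was the only one found in exactly the 6 low-dose libraries, while 5 such loci were in all 15 libraries and 201 were in 1. The source of these fragments was not tested.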

How the results depend on the processing

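No paired analysis was possible because the replicate numbers differ between groups. Of the member results under alternatives, 950 kept direction and side of the threshold, 33 changed direction and 2 passed the threshold (Cbr3, above). A difference of exactly 0, as for Ptgr1 at the extract low dose without vehicle replicate 2, was counted as kept. The F tests among these results have no direction and were counted by side of the threshold only. The cause of each change was not tested. The table without assembled loci could not test any member.

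Numbers of genes called changed as follows. Pseudocount 0.1 gave 7 at the cymopol high dose, 3 at the extract high dose and 1 at the extract low dose against vehicle, 0 between cymopol doses, 1 between agents at the high doses and 8 for any group. No filter gave 1 and 6 at the high doses against vehicle, 3 between extract doses, 9 between agents at the high doses and 5 for any group. Median-of-ratios scaling gave 0, 3 and 2 against vehicle for cymopol high, extract high and cymopol low dose, 0 between cymopol doses and 1 between agents at the high doses. Fits of 2 groups gave 0 and 0 at the high doses against vehicle and 5 between extract doses. Annotated identifiers gave 0 at the cymopol high dose, 0 between cymopol doses, 1 between agents at the high doses, 1 for the interaction and 1 for any group. Array weights gave 0 between cymopol doses, 13 between extract doses, 7 between agents at the high doses, 2 for the interaction and 12 for any group. Without the 3 libraries rich in intergenic fragments, which leaves vehicle replicate 4 alone and assumes that it varies like the other groups, the numbers were 159 (cymopol high), 207 (extract high), 350 (cymopol low) and 245 (extract low) against vehicle, 0 between cymopol doses, 1 for the interaction and 64 for any group.

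Leaving out each library in turn gave 0 to 7 genes at the cymopol high dose, 1 to 7 at the extract high dose, 0 to 9 at the cymopol low dose and 0 to 8 at the extract low dose against vehicle, with the highest numbers without vehicle replicate 2, or replicate 5 for the extract low dose. It gave 0 to 3 between cymopol doses, 1 to 2 between extract doses, 1 to 3 between agents at the high doses, 0 to 1 for the interaction and 1 to 8 for any group.

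Members changed direction as follows (log2 differences). Ptgr1 against vehicle was 0.43 (cymopol high) and 0.99 (extract high) at pseudocount 0.1, 0.076 and 0.097 with array weights, and 1.04, 1.13 and 0.26 (cymopol low) without the intergenic-rich libraries. Akr1b8 between agents at the low doses was -0.29 at pseudocount 0.1, -0.75 scaled, -0.42 with array weights and -1.17 without those libraries. Between extract doses, Cbr1 was -0.50 and Cbr3 -0.087 scaled, and -0.22 and -0.16 without those libraries. Ranges over single libraries left out were -1.05 to 1.04, -0.96 to 1.13 and -1.84 to 0.26 for Ptgr1 against vehicle (cymopol high, extract high, cymopol low), all positive without vehicle replicate 2. They were -0.074 to 1.39 for Nqo1 at the cymopol low dose against vehicle, where replicate 35 decided the sign. Between cymopol doses they were -0.28 to 1.40 for Cbr1 and -0.090 to 2.31 for Akr1b8. Between extract doses they were -0.22 to 2.22 for Cbr1 and -0.16 to 2.33 for Cbr3. Between agents they were -0.47 to 0.43 for Ptgr1 at the high doses, and -1.84 to 0.60 for Cbr1, -2.44 to 0.051 for Cbr3 and -1.17 to 1.53 for Akr1b8 at the low doses. Against vehicle at the high doses, Nqo1, Cbr1, Cbr3 and Akr1b8 stayed positive under all 22 alternatives each.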
